A study of Mus musculus with 18 samples.

Results

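*Atf3*, *Jun*, *Sox11*, *Stat3*, *Smad1*, *Klf6* and *Klf4* encode transcription factors known for their part in axon injury and regeneration of sensory neurons. They were picked by name, with earlier results of these data known, and are 7 of the 36737 genes in the deposited table of dorsal root ganglia (DRG), the clusters of sensory neuron cell bodies beside the spinal cord. All 7 were found under a single entry and all 7 passed the low-count filter of each comparison. In the table (mm10) the genes span *Atf3* chr1:191170296-191218039, *Jun* chr4:95049034-95052222, *Sox11* chr12:27334264-27342574, *Stat3* chr11:100885098-100939540, *Smad1* chr8:79338395-79399518, *Klf6* chr13:5861482-5870394 and *Klf4* chr4:55527143-55532466, with *Klf6* on the plus strand and the other 6 on the minus strand.

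Bulk RNA-seq was performed on L3–L5 DRG, which supply the hind limb, from adult CD1 mice, an outbred stock without genetic modification. The 3 groups were sham surgery, tibial fracture with vehicle (fracture), and tibial fracture with Protectin DX (fracture + PDX), a lipid mediator of the proresolving family, and each group held 3 male and 3 female mice with 1 library per mouse. Tissue of both fracture groups was collected at day 3 after surgery, in which the tibia was pinned and cut. The day of the sham group and the dose of PDX in these mice are not given in the sources used here.

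An axon cut in the periphery is known to switch a sensory neuron into a growth state. The kinase DLK signals to JNK, which phosphorylates Jun, while cytokines of the IL-6 family act through Stat3 and bone morphogenetic proteins through Smad1. *Atf3*, *Sox11* and *Klf6* are induced in that state, and *Klf4* is known as an inhibitor of axon growth. Stat3, Smad1 and Jun are controlled largely by phosphorylation, which RNA-seq does not measure.

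The bZIP factors Jun, ATF2 and ATF4 are known to act through 8-base elements of the AP-1 and CRE type, and 4 of the promoters are shown because they hold letters of that kind. Sequences are the 250 bases before the RefSeq start on GRCm38.p6, 5′ to 3′ on the strand of the gene, with the matched element in capitals.
*Jun*, chr4:95052223-95052472 (minus strand): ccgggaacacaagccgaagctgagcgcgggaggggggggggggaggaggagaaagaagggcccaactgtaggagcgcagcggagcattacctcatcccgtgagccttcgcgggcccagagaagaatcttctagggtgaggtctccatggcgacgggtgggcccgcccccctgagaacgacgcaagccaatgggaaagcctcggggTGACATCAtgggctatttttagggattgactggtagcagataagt
*Sox11*, chr12:27342719-27342968 (minus strand): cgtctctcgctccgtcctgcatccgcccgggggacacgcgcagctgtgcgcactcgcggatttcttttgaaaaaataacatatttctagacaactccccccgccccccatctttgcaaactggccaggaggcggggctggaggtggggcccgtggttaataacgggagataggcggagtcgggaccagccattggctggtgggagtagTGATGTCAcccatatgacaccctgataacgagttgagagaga
*Klf6*, chr13:5861239-5861488 (plus strand): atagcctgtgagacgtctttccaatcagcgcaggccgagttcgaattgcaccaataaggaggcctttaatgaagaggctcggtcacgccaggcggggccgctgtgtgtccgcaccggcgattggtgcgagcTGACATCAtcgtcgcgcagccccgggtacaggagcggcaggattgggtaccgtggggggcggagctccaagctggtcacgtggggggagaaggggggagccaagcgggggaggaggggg
*Atf3*, chr1:191183334-191183583 (minus strand): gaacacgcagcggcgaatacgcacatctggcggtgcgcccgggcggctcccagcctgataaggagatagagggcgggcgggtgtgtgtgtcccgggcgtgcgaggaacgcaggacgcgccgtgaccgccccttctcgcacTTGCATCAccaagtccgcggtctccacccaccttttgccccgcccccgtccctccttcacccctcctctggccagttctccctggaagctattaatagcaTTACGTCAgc
The element TGACATCA was found in the promoters of *Jun* and *Klf6*, and on the opposite strand, as TGATGTCA, in that of *Sox11*. It lay at bases -45 to -38 from the start in *Jun*, at -42 to -35 in *Sox11* and at -119 to -112 in *Klf6*. Of 32851 RefSeq promoters of the same length, 2.93% held it on either strand. *Atf3* held TTACGTCA at -10 to -3, present in 0.447% of promoters, and TTGCATCA at -110 to -103, present in 0.791%. The motifs TGACGTCA (1.55% of promoters), TGANTCA (6.75%) and TTCNNNGAA (7.02%) were found in 0 of the 7 promoters. The GC box GGGCGG was found in 7 of 7 and in 32.7% of all promoters. These motifs were chosen with the sequences in view, and a match is a string of letters and not a measured binding site. The *Atf3* stretch belongs to the inner of its starts, since the entry in the deposited table reaches from 191170296 to 191218039 on chromosome 1. On the minus strand the *Sox11* entry starts at 27342574, and the stretch shown does not adjoin it but begins at 27342719.

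Libraries held between 63235040 and 82824942 counts on genes. Sensory neuron markers were present in every library, with a summed level of 17719 to 19346 counts per 1000000 counts (CPM) over 15 genes in sham, 19696 to 20820 in fracture and 18774 to 21235 in fracture + PDX. Skeletal muscle markers (12 genes) summed to between 81 and 1418 CPM, and 5 libraries exceeded 500 CPM, namely sham female 2, fracture female 2, fracture male 1, fracture male 3 and fracture + PDX female 3. All 12 muscle markers had values above sham after fracture (median log2 2.03) and below fracture with PDX (median -1.81), with 0 called. Placenta markers (10 genes) summed to 190.0 to 616 CPM in sham, 31.1 to 294 in fracture and 29.1 to 151 in fracture + PDX. All 10 had values below sham after fracture (median log2 -1.76, 2 called lower) and in fracture + PDX (median -2.28, 6 called lower). The part of these tissues in the results below was not tested, and some values are also given without the 5 muscle-rich libraries. Leaving them out did not remove the muscle difference. All 12 muscle markers were still above sham after fracture (median log2 1.22) and below fracture with PDX (median -1.67). In bulk tissue, fewer cells of a type and less RNA per cell cannot be told apart.

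Levels between genes were compared as FPKM, fragments scaled by transcript length and by the fragments of the library. In sham DRG the order was *Jun* (34.0 ± 2.77 FPKM, SD, n = 6), *Stat3* (30.5 ± 0.797), *Klf6* (15.02 ± 1.58), *Smad1* (5.70 ± 0.243), *Atf3* (5.44 ± 0.482), *Klf4* (2.70 ± 0.505) and *Sox11* (1.07 ± 0.0525). The ranges of *Jun* and *Stat3* overlapped, as did those of *Smad1* and *Atf3*, and the other neighbours were apart in all 6 libraries. After fracture, *Atf3* held the third place at 17.0 ± 7.41 FPKM, above *Klf6* (12.8 ± 1.01) in 5 of 6 mice. In fracture + PDX it held the same place, at 26.1 ± 11.9 FPKM, and its highest library, at 46.0 FPKM, lay above every *Jun* value of that group. *Sox11* stayed last in each group, at 1.40 ± 0.249 FPKM after fracture and 1.80 ± 0.550 FPKM with PDX. Its range overlapped that of *Klf4* in both fracture groups, but not in sham. *Klf4* and *Sox11* had the lowest levels of the 7 in each group, while *Jun* and *Stat3* ranked 1317th and 1491st of 36660 gene symbols in sham.

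**Figure D1:**
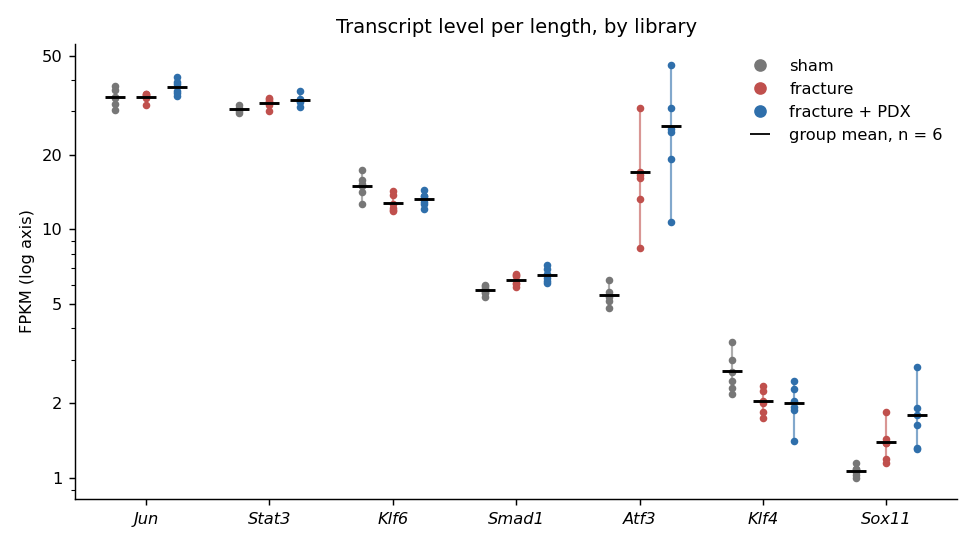
Transcript level of the 7 genes in FPKM (log axis) in sham, fracture and fracture + PDX libraries. Points are libraries, vertical lines their range and black bars group means (n = 6). *Atf3* moved from 5.44 FPKM in sham to 17.0 in fracture and 26.1 in fracture + PDX, while *Jun* stood at 34.0, 34.1 and 37.4 FPKM.

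Differences were tested with edgeR's quasi-likelihood fit, with sex in the model, over the 12 libraries of each comparison, and calls were made at an adjusted p under 0.05 (Benjamini-Hochberg, over all genes tested). Fold changes are log2 values of this fit with their SE. Fracture against sham gave 2 of the 7 genes called higher and 0 lower, beside 1.09% of all 20659 tested genes called higher and 1.83% lower. Fracture + PDX against fracture gave 0 of 7, where 0% of 20562 genes were called higher and 0% lower. That comparison called 0 genes in either direction with edgeR, while 1113 had an unadjusted p under 0.05 and DESeq2 called 21. Fracture + PDX against sham gave 4 of 7 called higher and 0 lower, beside 2.17% of 20574 genes called higher and 2.32% lower. Between PDX and fracture 1 of the 7, *Jun*, had an unadjusted p under 0.05, beside 5.41% of all genes. The 3 comparisons share libraries (fracture enters the first 2, sham the first and the last), so their values stand side by side and are not independent. The median log2 fold change of the 7 genes was 0.10 for fracture against sham, 0.07 for PDX against fracture and 0.15 for PDX against sham, with medians of all genes within 0.01 of 0.

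**Figure D2:**
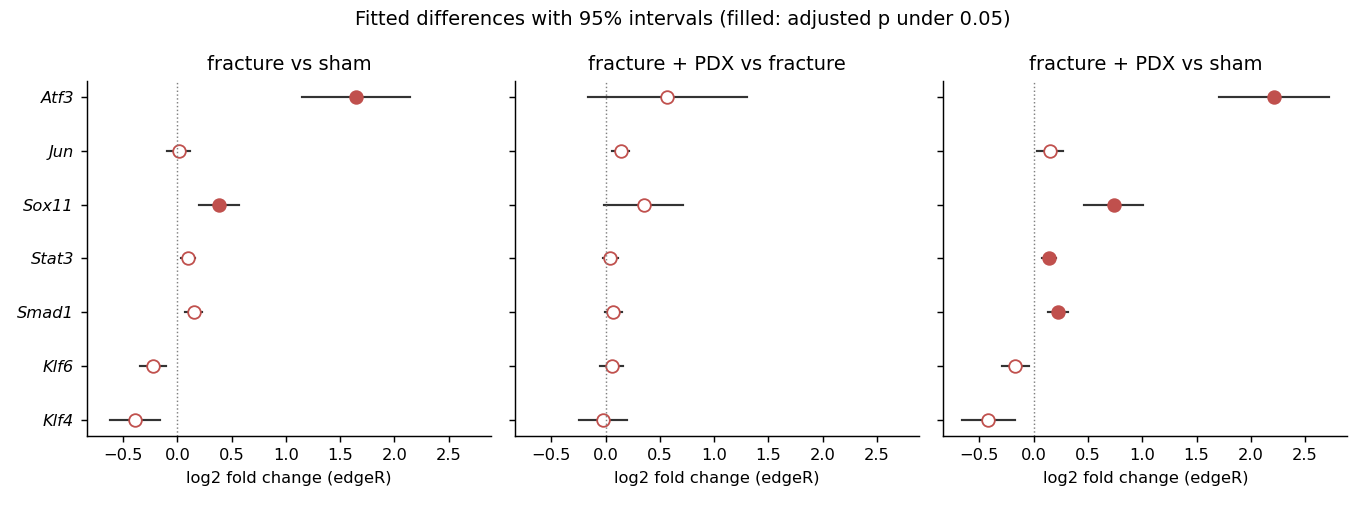
Fitted log2 fold changes of the 7 genes in the 3 comparisons, with 95% intervals. Filled points passed an adjusted p under 0.05. *Atf3* and *Sox11* are filled in the panels of fracture and of fracture + PDX against sham, *Smad1* and *Stat3* in the latter only, and no point is filled for PDX against fracture.

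*Atf3* encodes a stress-induced bZIP factor that is scarce in uninjured sensory neurons and a common marker of axon injury. Its level in sham was 11.3 CPM at the lowest, 12.9 at the median and 14.5 at the highest. After fracture the corresponding values were 20.3, 39.1 and 72.3 CPM, and with PDX they were 25.6, 60.7 and 107 CPM. Every library of either fracture group lay above every sham library. *Atf3* was 3.13-fold higher after fracture (log2 1.65 ± 0.25 SE, adjusted p = 0.0141), with an exact two-sided permutation p of 0.00216 over 6 against 6 libraries, the smallest that this design allows. In fracture + PDX it was 4.63-fold above sham (log2 2.21 ± 0.26, adjusted p = 0.0026). Among all genes tested it ranked 57th by fitted fold after fracture and 18th in fracture + PDX.

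The *Atf3* level was even among sham mice and uneven among injured ones. The highest library exceeded the lowest 1.29-fold in sham, 3.56-fold in fracture and 4.19-fold in fracture + PDX, and the coefficient of variation was 8.45%, 42.7% and 44.0%. In the fracture group, male 2 stood highest (72.3 CPM) and male 1 lowest (20.3 CPM), with the other 4 mice between 31.9 and 40.3 CPM. In fracture + PDX, female 3 stood highest (107 CPM) and male 1 lowest (25.6 CPM). PDX female 3 was also rich in muscle markers (688 CPM in sum), as was fracture male 1, whereas fracture male 2 was not among the 5 such libraries. Without those 5 libraries *Atf3* was still called, at log2 2.07 (adjusted p = 0.0016) for fracture and 2.06 (adjusted p = 0.0089) for fracture + PDX against sham. It was called without any single library, at log2 1.39 to 1.79 and 2.05 to 2.39, respectively. Of 11 other settings 10 kept the fracture call, and a replicate block ended it (log2 1.56, adjusted p = 0.0609). The summed neuron markers were also apart, with medians of 18754 CPM in sham and 20438 CPM in fracture.

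The *Atf3* levels of PDX-treated and vehicle-treated fracture mice did not differ beyond their spread. The fitted difference was log2 0.57 ± 0.37 (95% interval -0.17 to 1.30, adjusted p = 0.930; exact permutation p = 0.141). Only 2 of 6 PDX libraries lay above all fracture libraries. The interval leaves room for a level with PDX well above that with vehicle, and for one slightly below it. The fitted difference was log2 0.09 without the muscle-rich libraries, which include the lowest fracture library (male 1) and the highest PDX library (female 3). It was 0.87 without fracture male 2 and 0.39 without PDX female 3.

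*Jun* encodes the bZIP partner of *Atf3* in AP-1 dimers and the target of JNK. Its level was 104 CPM at the lowest, 119 at the median and 134 at the highest in sham, and 111, 122 and 123 CPM after fracture. The fracture values lay inside the sham range. The fitted difference was log2 0.01 ± 0.05 (95% interval -0.09 to 0.12, adjusted p = 0.929; exact permutation p = 0.764). With PDX the values were 121, 132 and 141 CPM, and 5 of 6 libraries stood above every fracture library. The difference of PDX from fracture was log2 0.14 ± 0.04, with an unadjusted p of 0.0053 in edgeR that became 0.811 after adjustment, and an exact permutation p of 0.0108 among 21 such tests. Against sham the PDX difference was log2 0.15 ± 0.06 (adjusted p = 0.200). In the GENCODE annotation *Jun* overlaps its antisense gene *Junos* over 689 bases, and whether the counting used the strand of the reads is not stated.

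*Sox11* encodes a factor of the SoxC group, which is high in developing neurons and low in adult ones. Its level in sham was 9.29 CPM at the lowest, 9.75 at the median and 10.6 at the highest. After fracture the values were 10.7, 12.8 and 16.8 CPM, and with PDX 12.04, 16.1 and 25.2 CPM. Neither fracture group overlapped sham, although the lowest fracture library and the highest sham library nearly met. *Sox11* was 1.31-fold higher after fracture (log2 0.39 ± 0.09, adjusted p = 0.0425; exact permutation p = 0.00216). This call was a narrow one: it was kept without sham female 3 (adjusted p = 0.0278) or fracture female 1 (0.0413) and lost without any 1 of the other 10 libraries (up to 0.105), and it was lost in 5 of 11 other settings, among them the fit without the muscle-rich libraries (log2 0.48, adjusted p = 0.263). In fracture + PDX *Sox11* was 1.67-fold above sham (log2 0.74 ± 0.14, adjusted p = 0.0107), a call kept in all 11 other settings and without any single library. Against fracture the PDX difference was log2 0.35 ± 0.18 (95% interval -0.01 to 0.71, adjusted p = 0.917), and 3 of 6 libraries lay above all fracture libraries. It was log2 0.20 without PDX female 3 and 0.13 without the muscle-rich libraries.

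**Figure D3:**
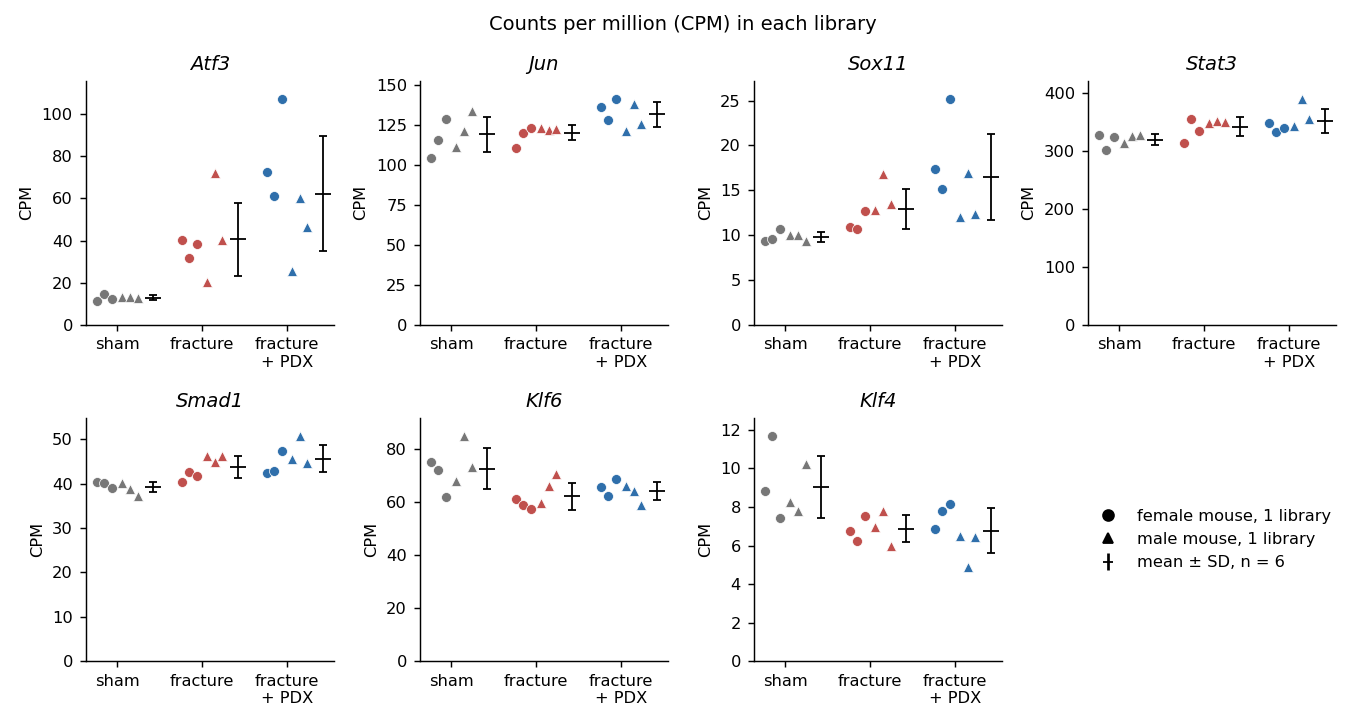
Counts per 1000000 (CPM) of the 7 genes in each library, females as circles and males as triangles, with the group mean ± SD (n = 6) at the right of each group. *Atf3* and *Sox11* of both fracture groups lie above all sham libraries, and their spread widens from sham (11.3 to 14.5 CPM for *Atf3*) to fracture + PDX (25.6 to 107 CPM).

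*Stat3* encodes the factor that IL-6 family receptors activate and that also acts in satellite glia and macrophages. Its level was 302 CPM at the lowest, 324 at the median and 327 at the highest in sham, 313, 349 and 354 CPM after fracture, and 332, 346 and 389 CPM with PDX. After fracture 5 of 6 libraries exceeded all sham libraries, and female 1 (313 CPM) did not. That difference was log2 0.10 ± 0.03 and was not called (adjusted p = 0.127), but was without female 1 (adjusted p = 0.0455), and it was log2 0.05 without the muscle-rich libraries (adjusted p = 0.751). With PDX all 6 libraries lay above sham, by log2 0.14 ± 0.03 (1.10-fold, adjusted p = 0.0337). The *Stat3* call was kept without sham female 1, sham female 3, PDX female 2, PDX female 3 or PDX male 1 and lost without any 1 of the other 7 libraries (adjusted p up to 0.0853), and it was lost in 4 of 11 other settings, namely the replicate block (0.0531), the limma fits of FPKM with a pseudocount of 1 (0.0690) or 0.1 (0.0687), and the fit without the muscle-rich libraries (0.0932). In the same comparison 13 of 15 sensory neuron markers were above 0 (median log2 0.12, 2 called higher), as were 5 of 8 satellite glial markers (median 0.18, 2 called higher), and their part in the *Stat3* value was not tested. The end of *Stat3* overlaps *Stat5a*, on the other strand, over 72 bases.

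*Smad1* encodes the factor that bone morphogenetic protein receptors phosphorylate. Its level was 37.2 CPM at the lowest, 39.5 at the median and 40.4 at the highest in sham, 40.3, 43.7 and 46.2 CPM after fracture, and 42.5, 45.1 and 50.7 CPM with PDX. A single fracture library, female 1, fell inside the sham range, and none of the PDX libraries did. *Smad1* was not called after fracture (log2 0.15 ± 0.04, adjusted p = 0.0660; exact permutation p = 0.0043), but was without female 1 (adjusted p = 0.0468) and with DESeq2 (adjusted p = 0.0249). In fracture + PDX it was 1.17-fold above sham (log2 0.22 ± 0.05, adjusted p = 0.0164). That call was kept without any single library and in 10 of 11 other settings, and the replicate block ended it (adjusted p = 0.0531). PDX and fracture libraries overlapped, with a difference of log2 0.07 ± 0.04 (adjusted p = 0.917).

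*Klf6* encodes a zinc-finger factor known to promote axon growth. Its level was 61.9 CPM at the lowest, 72.6 at the median and 84.9 at the highest in sham, 57.3, 60.3 and 70.4 CPM after fracture, and 59.1, 64.9 and 68.8 CPM with PDX. After fracture 4 of 6 libraries lay below all sham libraries. The fitted difference was log2 -0.22 ± 0.06 (adjusted p = 0.0658; exact permutation p = 0.0195), and with PDX against sham it was -0.17 ± 0.06 (adjusted p = 0.167). Neither was called, but the first was with DESeq2 (adjusted p = 0.0167), with all 18 libraries in one edgeR fit (0.0459), and without sham female 3 (0.0376) or sham male 1 (0.0404). PDX differed from fracture by log2 0.06 ± 0.05 (adjusted p = 0.968).

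*Klf4* encodes the Krüppel-like factor that restrains axon growth and is also expressed by endothelial cells, fibroblasts and macrophages. Its level was 7.42 CPM at the lowest, 8.54 at the median and 11.7 at the highest in sham, 6.00, 6.84 and 7.80 CPM after fracture, and 4.87, 6.70 and 8.16 CPM with PDX. In each fracture group, 4 of 6 libraries lay below all sham libraries. The difference from sham was log2 -0.39 ± 0.12 after fracture (adjusted p = 0.0877; exact permutation p = 0.0087) and -0.42 ± 0.13 with PDX (adjusted p = 0.0830; exact permutation p = 0.0152). Neither was called by edgeR, while DESeq2 called both (adjusted p = 0.0252 and 0.0223) and edgeR called the second without sham female 3 (0.0345). PDX differed from fracture by log2 -0.03 ± 0.11 (adjusted p = 0.997). Without the muscle-rich libraries the fracture difference was log2 -0.18 (adjusted p = 0.716), and that of PDX from fracture was -0.15 (adjusted p = 0.943). Endothelial markers moved beside it: *Cdh5*, a junction protein of endothelium, fell by 0.73 on the log2 scale after fracture (adjusted p = 0.0117) and *Flt1*, a VEGF receptor, fell by 0.71 (adjusted p = 0.0171), 2 of 8 markers, of which 6 had values below sham, and whose sum was 161 to 203 CPM in sham and 142 to 165 CPM after fracture. The macrophage markers *Csf1r* and *Adgre1* also fell, by 0.47 and 0.56 (adjusted p = 0.0073 and 0.0139), 2 of 12. Of 8 fibroblast and meningeal markers, all 8 had values below sham after fracture (median log2 -0.27) and 1, the matrix gene *Dcn*, was called (adjusted p = 0.0331). Without the muscle-rich libraries 0 markers of these 3 lists were called after fracture, with medians of log2 -0.23 (endothelial, from -0.14), -0.19 (macrophage, from -0.30) and -0.10 (fibroblast). The part of these cells in the *Klf4* value was not tested.

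Counted without a model, 2 of the 7 genes had every fracture library above every sham library, beside 1.10% of all genes. For fracture + PDX against sham this held for 4 of 7, beside 1.35%. For PDX against fracture it held for 0 of 7, beside 0.126%.

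Males and females were compared by the interaction of sex with group. Within each sex the difference is that of mean log2 CPM and not a fitted value. For PDX against fracture it was 0.72 in females and -0.07 in males in *Sox11*, and 1.09 in females and 0.09 in males in *Atf3*. Among females, all 3 PDX libraries of both genes lay above all 3 fracture libraries, whereas the male libraries overlapped. *Jun* and *Klf6* of the PDX females also lay above the fracture females, which makes 4 of 7 beside 4.44% of all genes with 3 against 3 libraries. Among males it was 0 of 7 beside 5.07%. The interaction was log2 -0.83 ± 0.27 for *Sox11* (unadjusted p = 0.0105, adjusted p = 0.998 in edgeR). For *Atf3* it was -1.14 ± 0.67 (unadjusted p = 0.122, adjusted p = 0.998). *Klf6* had -0.21 ± 0.09 (unadjusted p = 0.0443, adjusted p = 0.998). No interaction of the 7 was called. For fracture against sham the unadjusted p of the interaction was under 0.05 in edgeR for *Smad1* alone (unadjusted p = 0.0143, adjusted p = 0.616). Its difference of mean log2 CPM was 0.06 in females and 0.24 in males.

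Among mice of the same group and sex, *Atf3* and *Sox11* tended to move together. After the mean of each group and sex was removed from the log2 CPM, Pearson's r over 18 libraries was 0.72 (permutation p = 0.0007, adjusted p = 0.0147 over 21 pairs of the 7 genes) and Spearman's rho was 0.74 (adjusted p = 0.0134). Without the 2 libraries farthest from the *Atf3* median, r was 0.74. The relation came from the 12 fracture libraries (r = 0.75), and in the 6 sham libraries, where *Atf3* hardly varied, r was 0.04. Of the 21 pairs, 1 passed the adjustment. The permutations exchanged the 18 values freely, although means had been removed and the spread of *Atf3* differed between groups. These p-values may therefore be too small, and whether the pair would pass a stricter test was not tested. *Sox11* and *Smad1* had r = 0.62 (adjusted p = 0.0648), which fell to 0.21 without the 2 farthest libraries.

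**Figure D4:**
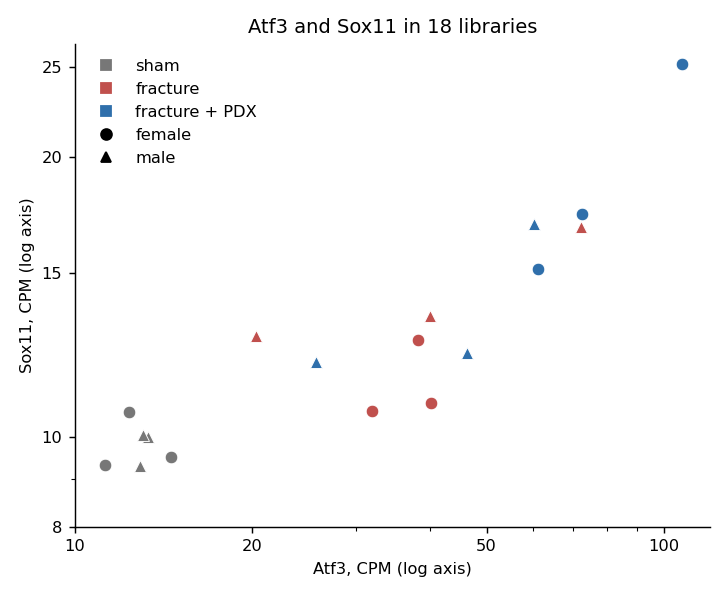
*Atf3* against *Sox11* in CPM (both axes log) in 18 libraries, coloured by group, females as circles and males as triangles. Sham libraries cluster at 11.3 to 14.5 CPM of *Atf3* and 9.29 to 10.6 CPM of *Sox11*, and fracture + PDX female 3 lies at the far end (107 and 25.2 CPM).

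The partners and upstream pathways of the 7 factors were examined as lists. Of 20 other AP-1 and ATF factors, 0 were called in any comparison. All 20 had values below sham after fracture, with a median of log2 -0.14 (18 of 20 without the muscle-rich libraries). The smallest p-values belonged to *Fos* (log2 -0.52, adjusted p = 0.0515), *Maff* (-0.37, 0.0543) and *Fosl2* (-0.40, 0.0721). Among 20 immediate early genes, a list that shares *Fos* and others with the former, *Zfp36*, an RNA-binding protein that destabilizes cytokine mRNAs, fell by 0.66 after fracture (adjusted p = 0.0061) and *Btg2*, an antiproliferative gene, fell by 0.54 (adjusted p = 0.0162), while 0 rose. In fracture + PDX against sham 19 of the 20 were below 0 (median log2 -0.26). Of them 2 were called lower, and 2 also without the muscle-rich libraries.

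Of 14 tested Krüppel-like factors beside *Klf6* and *Klf4*, 0 rose and 2 fell after fracture. *Klf11* fell by 0.33 (adjusted p = 0.0323) and *Klf2*, an endothelial factor, fell by 0.71 (adjusted p = 0.0378). In fracture + PDX against sham 1 of 13 was called, *Klf7*, which promotes axon growth and was log2 0.21 higher (adjusted p = 0.0117). Of 15 SoxC and other injury-related factors, 0 were called after fracture, and *Bhlhe40*, a repressor of the bHLH family, fell by 0.29 in fracture + PDX against sham (adjusted p = 0.0396).

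In the pathway that activates Stat3, 0 of 23 tested genes were called after fracture. The receptor *Lifr* (log2 0.15, adjusted p = 0.0579) and the ligand *Lif* (-0.74, adjusted p = 0.0654) came nearest. In fracture + PDX against sham, 1 of 24 was called, *Cntfr*, the receptor of ciliary neurotrophic factor (log2 0.16, adjusted p = 0.0397). In the pathway of Smad1, 0 of 21 genes were called in any comparison, and *Smad5* had the smallest p after fracture (log2 -0.19, adjusted p = 0.0538). In the DLK and JNK pathway 1 of 13 rose after fracture, the JNK scaffold *Mapk8ip3* (log2 0.10, adjusted p = 0.0372). Sensory neuron markers had a median of log2 0.11 there, with 13 of 15 above 0 and 4 called higher, and their part in the *Mapk8ip3* value was not tested. With PDX against sham *Mapk8ip3* (0.09, adjusted p = 0.0403) and the scaffold *Mapk8ip2* (0.12, adjusted p = 0.0410) were called. PDX against fracture gave 0 calls in each of these lists. Without the muscle-rich libraries fracture against sham gave 0 calls in each of them too, where 10 genes were called in all, and PDX against sham gave 0 calls in the DLK and JNK list and in the list of *Bhlhe40*.

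The last list held regeneration-associated effector genes, several of them known targets of the 7 factors. After fracture 7 of 21 rose and 1 fell, and the median was log2 0.49. *Flrt3*, a neurite growth adhesion protein, had the smallest p, at 11.7 ± 2.67 CPM in sham and 21.7 ± 4.68 CPM after fracture (SD, n = 6, log2 0.91, adjusted p = 0.0025). *Tubb6*, a tubulin, rose by 0.38 (adjusted p = 0.0227) and *Gadd45a*, a stress-response gene, rose by 0.76 (adjusted p = 0.0283). *Tgm1*, an epidermal transglutaminase, fell by 1.58 (adjusted p = 0.0140). In fracture + PDX against sham 16 of 22 rose and 1 fell, with a median of log2 0.90, and the smallest p belonged to the cholecystokinin receptor *Cckbr* (log2 3.55, adjusted p = 0.0029) and the orphan receptor *Gpr151* (2.49, adjusted p = 0.0045). Between PDX and fracture 0 of 22 were called, although all 22 fitted values were above 0 (median log2 0.29), and 18 of 22 were without the muscle-rich libraries (median 0.07). In that comparison 12 of 12 neutrophil markers (median log2 1.11) and 11 of 12 macrophage markers (0.27) were also above 0. So were 7 of 7 red blood cell markers (0.28) and 8 of 8 B-cell precursor markers (0.55). All 12 skeletal muscle markers (median -1.81) and all 9 tested placenta markers (-0.57) were below 0. In these lists 0 were called, and 10 of 12 neutrophil markers had an unadjusted p under 0.05 in edgeR, beside 5.41% of all genes. After fracture against sham, 12 of 12 neutrophil markers (median log2 -0.81, 1 called lower) and 12 of 12 macrophage markers (-0.30, 2 called lower) were below 0. For PDX against fracture without the muscle-rich libraries, 12 of 12 neutrophil markers (median log2 1.21) and 5 of 12 macrophage markers (-0.02) were above 0. So were 7 of 7 red blood cell markers (0.21) and 8 of 8 B-cell precursor markers (0.58). All 12 skeletal muscle markers (-1.67) and all 9 placenta markers (-1.08) stayed below 0. The part of these cells in the effector values was not tested. Without the muscle-rich libraries 3 effectors were called higher after fracture and 20 of 22 values were above 0 (median log2 0.75), and 11 were called higher in fracture + PDX against sham (median 0.81).

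**Figure D5:**
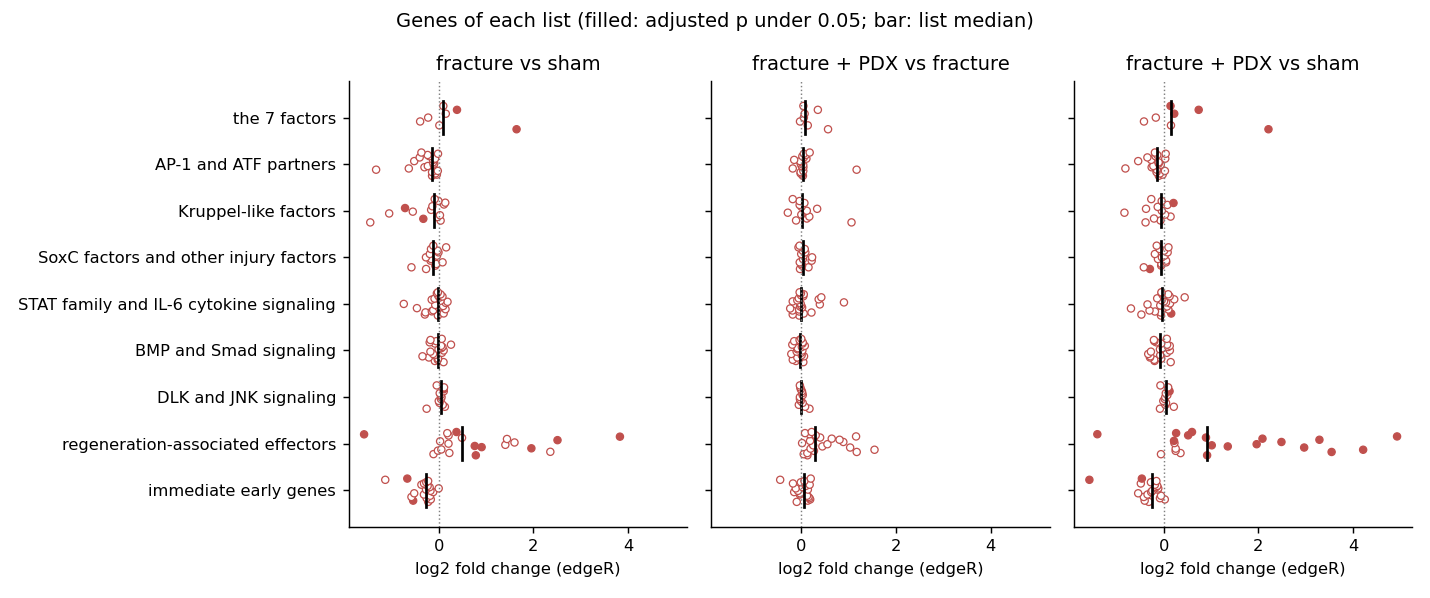
Fitted log2 fold changes of the 7 factors and of the genes of 8 lists in the 3 comparisons. Each point is a gene, filled at an adjusted p under 0.05, and bars are list medians. The regeneration-associated effectors reach the farthest to the right, with a median of 0.49 for fracture and 0.90 for fracture + PDX against sham.

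The relation of the effectors with *Atf3* from mouse to mouse was added after the data had been seen. With the group and sex means removed, 16 of 21 tested effectors correlated with *Atf3* at an adjusted p under 0.05 over the 21 (permutation tests, 18 libraries), all 16 positively, and 13 did by Spearman's rho. Their r was 0.52 or higher, which 4.21% of all 20658 other tested genes reached. The relation came from the 12 fracture libraries, where 20 of 21 had r above 0, while in the 6 sham libraries 10 of 21 had r below 0. *Sema6a*, a semaphorin, had the highest r (0.93, rho 0.84, and 0.85 without the 2 farthest libraries). *Flrt3* followed (r = 0.85, rho 0.82, and 0.83), then *Csf1*, the cytokine through which injured neurons call microglia and macrophages (r = 0.85, rho 0.67, and 0.71), although its r was -0.98 in the 6 sham libraries. For *Gap43*, a growth cone protein, r was 0.52 and fell to 0.18 without the 2 farthest libraries. *Tgm1*, *Arg1*, *Tubb2b*, *Chl1* and *Cckbr* did not pass. As for the pairs of factors, the permutations exchanged the 18 values freely after means had been removed. The p-values may therefore be too small and the count of 16 too high. Both values of a point come from the same library, and the part of cell content or scaling in the relation was not tested.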

How the data were processed

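L3–L5 DRG of 18 mice were profiled by poly(A)-selected, stranded, paired-end RNA-seq (1 library per mouse, 3 males and 3 females in each of 3 groups). The authors deposited raw counts per gene, without normalization, and FPKM values, scaled for transcript length and library size. The submitters' processing notes list cutadapt 1.10, FastQC, HISAT2, StringTie and the build mm10; the counting program and its strand setting are not given in the sources used here. Columns were matched to mice by their names, and the columns named Con were taken as sham, the group that no other name fits. The deposited table holds no comparison that was used.

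Counts were tested in R 4.3.3 with edgeR 4.0.16 (filterByExpr with minimum count 10 and minimum total count 15, TMM, robust quasi-likelihood fits with sex and group, 12 libraries per comparison), with Benjamini-Hochberg adjustment over all genes tested. The fit was tested on simulated data. CPM are counts per 1000000 after TMM scaling. Single genes were also tested by two-sided exact permutation of the mean log2 CPM (prior count 2), and correlations by 100000 permutations, in Python 3.11.15 with scipy 1.17.1. Intervals are the fitted value ± 1.96 SE. Alternatives were DESeq2 1.42.0, limma 3.58.1 on log2(FPKM + 1) and log2(FPKM + 0.1), other scalings and filters, no sex term, a replicate block, all 18 libraries, and each library left out. Leaving out the libraries with over 500 CPM of muscle markers, and the correlations of *Atf3* with effectors, were added after seeing the data.

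The 7 genes and all lists were chosen with earlier results of these data known. Named genes are the 7, and per list and comparison at most the 4 called genes with the smallest p, or else up to 3 with the smallest p for fracture against sham; *Sema6a*, *Csf1*, *Gap43* and the effectors that did not correlate were named after their values were seen. The labels do not say that mice of the same number were paired.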

Additional observations from a re-analysis of the deposited data

Results flagged for a closer look

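The *Jun* level of fracture female 1, 111 CPM, stood below the other 5 fracture libraries, which lay between 120 and 123 CPM. Its gap to the nearest library was 0.720 of the range of the group, above Dixon's limit of 0.625 for 6 samples. It was the only such library among 21 sets of 6 (7 genes in 3 groups), and chance alone flags about 1 in 20. The value lies inside the sham range of 104 to 134 CPM.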

How the results depend on the processing

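The 603 genes called for fracture against sham became 1476 with DESeq2, 118 with a replicate block and 10 without the muscle-rich libraries (fewer samples), and the 7 factors gave 5, 0 and 1 calls, and 1 with limma on log2(FPKM + 1) and on log2(FPKM + 0.1). For PDX against fracture DESeq2 called 21 genes. For PDX against sham the 925 genes became 1579 with DESeq2, 486 with the block, 613 with limma on log2(FPKM + 1) and 561 without the muscle-rich libraries, and the block left 2 of the 4 factors. The cause of these shifts was not tested. Same-numbered mice were not shown to be paired: their deviations correlated above 0.1 in 5 of 18 pairs and best with their own number in 9. In PDX against fracture all 3 male pairs did both (r = 0.259, 0.148 and 0.191) and 0 of 3 female pairs exceeded 0.1, and there the block called 0 genes, as without it. Under the replicate block *Atf3* after fracture was log2 1.56 (adjusted p = 0.0609, from 6.68e-08 to 0.0609 over its 11 alternatives). With 1 library left out, fracture against sham called 213 to 710 genes and 1 to 4 factors, PDX against fracture 0 to 1 genes, and PDX against sham 498 to 1008 genes and 3 to 5 factors. The fall was over 1.5 times without fracture female 2 (213), male 1 (378), male 2 (380) or male 3 (287) or sham female 1 (372), female 2 (291), male 2 (253) or male 3 (245), and for PDX against sham without PDX female 1 (498), PDX male 3 (560), sham female 2 (526), male 2 (539) or male 3 (536). *Jun* after fracture ranged from log2 -0.023 to 0.048 and *Klf4* between PDX and fracture from -0.075 to 0.052, so their signs are not fixed. The least counted of the 7 genes in a library was *Klf4*, with 379 counts, so its counting error is the largest relative to the level.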
